A study of Mus musculus with 2 samples.

Results

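The regions described here are places where an Otp antibody gave a CUT&RUN signal within 100 bp of an end of a single protein-coding gene. They were chosen by the deposited calls themselves: a region had to be in the Otp list on chromosomes 1 to 19 and overlap no IgG region by 1 bp or more. Its summit, the base with the highest signal, had to lie within 100 bp of an end of a protein-coding gene and over 1 kb from the ends of every other protein-coding gene. This held for 2374 of 11379 Otp regions (20.9%), at 2373 genes. Those genes were 11.5% of the 20661 protein-coding genes on the same chromosomes. Of the 19842 genes with an end clear of other genes, which alone could meet the rule, they were 12%. Since these calls and distances selected the regions, their number, heights and distances are given as description.

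CUT&RUN uses an antibody to bring a nuclease to a chromatin protein in nuclei, and the DNA fragments that are cut free are sequenced. Both libraries were made from nuclei of WT mice, labelled as neurons of the PVN (the paraventricular nucleus, a hypothalamic centre of appetite and hormone control), and differed in the antibody: Otp in 1 library, IgG in the other. IgG has no intended target and serves as the control for untargeted cutting. The sources used here state the animals as adult and do not give their sex or how many were pooled. Each antibody has a single library (n = 1), so differences between the antibodies carry no replicate error and were not tested. Peak lists hold no expression values, so the labelled tissue could not be compared with marker genes.

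Otp (Orthopedia) is a homeodomain transcription factor needed for the development of neuroendocrine neurons of the PVN. Homeodomain proteins bind short A- and T-rich sequences with a TAAT core, and a palindromic pair of cores gives TAATTA. The stretch just upstream of a gene start, the proximal promoter, is where RNA polymerase II and its general factors assemble. Promoters of broadly expressed genes are often rich in G, C and CpG, and carry GC boxes (bound by Sp and Klf proteins), CCAAT boxes (bound by NF-Y) and sites of NRF1, ETS proteins or BANP. The series asks whether Otp occupies the Mc4r promoter. Mc4r encodes the melanocortin receptor through which PVN neurons restrain food intake.

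The sequences under 8 of the 20 regions with the highest deposited −log10 q show what DNA lay at those summits. They are the first 8 in that order whose promoter window included the summit and held any of 14 motifs. A motif somewhere in the window was thus a condition of printing, so the matches in these 8 do not describe the 20. For each, 101 bases around the summit follow, with the summit at base 51. They were read 5′ to 3′ on the strand of the gene from RefSeq promoter windows of GRCm38.p6, which is mm10. Capitals mark exact matches, on either strand, to any of 14 motifs spelled out with the motif counts. The stretches are chr9:19622034-19622134 (plus strand) for Zfp317, chr5:137684789-137684889 (minus) for Agfg2, chr11:75486637-75486737 (plus) for Prpf8, chr1:88277602-88277702 (minus) for Hjurp, chr19:46152432-46152532 (plus) for Gbf1, chr12:91849161-91849261 (minus) for Sel1l, chr14:54517457-54517557 (minus) for Prmt5 and chr17:12916186-12916286 (plus) for Tcp1.
Zfp317: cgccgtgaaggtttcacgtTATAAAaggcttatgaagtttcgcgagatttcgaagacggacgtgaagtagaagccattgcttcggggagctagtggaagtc
Agfg2: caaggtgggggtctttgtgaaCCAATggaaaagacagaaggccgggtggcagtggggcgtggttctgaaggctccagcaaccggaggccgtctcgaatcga
Prpf8: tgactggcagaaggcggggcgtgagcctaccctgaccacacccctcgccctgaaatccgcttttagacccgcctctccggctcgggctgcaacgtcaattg
Hjurp: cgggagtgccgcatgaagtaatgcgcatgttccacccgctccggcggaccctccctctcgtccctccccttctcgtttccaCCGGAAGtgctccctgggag
Gbf1: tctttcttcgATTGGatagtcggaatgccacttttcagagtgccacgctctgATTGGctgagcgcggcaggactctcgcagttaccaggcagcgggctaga
Sel1l: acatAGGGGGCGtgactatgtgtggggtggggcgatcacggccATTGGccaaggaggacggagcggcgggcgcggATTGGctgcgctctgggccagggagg
Prmt5: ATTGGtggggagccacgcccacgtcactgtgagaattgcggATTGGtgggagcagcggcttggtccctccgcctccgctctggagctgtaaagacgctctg
Tcp1: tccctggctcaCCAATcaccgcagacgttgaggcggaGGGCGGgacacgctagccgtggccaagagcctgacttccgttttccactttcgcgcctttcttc
CCAAT, or its reverse complement ATTGG, is in capitals in the stretches of Agfg2, Gbf1, Sel1l, Prmt5 and Tcp1, and Gbf1, Sel1l and Prmt5 hold a pair of copies each. In Gbf1 the nearest match centred 4 bp from the summit, in Sel1l 5 bp and in Prmt5 7 bp. Zfp317 held a TATA box and Hjurp an ETS motif, centred 28.5 and 34 bp from the summit. The stretch of Prpf8 held no match. None of the 8 stretches holds TAATTA. Only 5.09% of all promoter windows, which are longer at 300 bases, hold it, so its absence from 8 stretches says little.

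To show where the homeodomain motif lay when a promoter had it, the whole 300-base windows of the 4 highest members with TAATTA follow on the strand of the gene, with the same marking. The windows are chr10:128337477-128337776 (plus) for Cs, which encodes citrate synthase, chr2:5012742-5013041 (minus) for the replication factor Mcm10, chr13:96388044-96388343 (plus) for the centriole protein Poc5, and chr11:100939491-100939790 (minus) for Stat3, the signal transducer of the leptin receptor.
Cs: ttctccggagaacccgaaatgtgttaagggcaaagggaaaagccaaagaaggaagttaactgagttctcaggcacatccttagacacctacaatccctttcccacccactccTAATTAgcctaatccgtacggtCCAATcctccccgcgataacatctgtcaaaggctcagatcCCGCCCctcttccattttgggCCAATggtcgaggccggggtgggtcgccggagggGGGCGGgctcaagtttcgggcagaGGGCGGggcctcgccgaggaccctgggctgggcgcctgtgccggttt
Mcm10: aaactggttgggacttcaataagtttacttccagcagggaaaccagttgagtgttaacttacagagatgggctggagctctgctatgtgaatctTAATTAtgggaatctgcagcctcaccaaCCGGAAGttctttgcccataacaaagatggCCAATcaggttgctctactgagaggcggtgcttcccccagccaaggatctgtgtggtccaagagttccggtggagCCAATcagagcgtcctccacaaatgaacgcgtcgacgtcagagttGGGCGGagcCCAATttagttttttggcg
Poc5: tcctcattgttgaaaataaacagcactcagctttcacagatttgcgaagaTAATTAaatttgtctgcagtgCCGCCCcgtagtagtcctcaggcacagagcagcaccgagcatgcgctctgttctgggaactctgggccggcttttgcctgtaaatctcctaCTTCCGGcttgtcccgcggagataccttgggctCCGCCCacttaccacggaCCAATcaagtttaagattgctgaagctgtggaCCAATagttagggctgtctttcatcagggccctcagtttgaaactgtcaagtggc
Stat3: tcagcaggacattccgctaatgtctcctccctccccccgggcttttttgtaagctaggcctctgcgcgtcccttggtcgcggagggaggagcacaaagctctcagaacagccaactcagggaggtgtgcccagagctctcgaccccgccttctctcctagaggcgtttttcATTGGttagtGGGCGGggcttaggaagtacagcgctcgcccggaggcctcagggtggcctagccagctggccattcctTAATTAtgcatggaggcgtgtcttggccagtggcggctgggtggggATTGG
The summit was base 226 of the Cs window, base 183 of Mcm10, base 125 of Poc5 and base 132 of Stat3. TAATTA centred 110.5 bp from the summit in Cs, 85.5 bp in Mcm10, 71.5 bp in Poc5 and 120.5 bp in Stat3. All 4 windows hold CCAAT or ATTGG as well, and in each the nearest marked match of any kind was closer to the summit than TAATTA, at 6.5, 28, 41 and 42 bp. Each window holds a single TAATTA and several other marked matches, so the nearest of the others was likely to be closer in any case.

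The highest region stood at Pip5k1c, which encodes a lipid kinase of the plasma membrane (chr10:81292618-81292972). Its fold enrichment was 21.0, and its summit held 73 tags (95% Poisson interval 57.2 to 91.8). Fold enrichment is the authors' ratio of signal at the summit to the peak caller's background, with the same small constant added to both. It is thus lower than the plain ratio, most of all where the background is low. A tag is a read or fragment as the authors' caller counted it, and intervals cover counting error only. Next came Zfp869, a zinc finger gene, with fold 19.3 and 74 tags. Zfp317, of the same kind, had fold 21.9 and 66 tags. Hip1, an endocytic adaptor, had 18.4 and 74 tags, and Agfg2, an Arf GTPase-activating protein family gene, had 23.5 and 62 tags, the highest fold among the 2374 regions. Hbp1 and Per1, a transcriptional repressor and a circadian clock gene, had 70 and 75 tags at folds of 16.7 and 14.8.

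The rest of the 20 highest regions are grouped here by what their genes do. This grouping was made after the genes were seen and was not counted against all genes. Prpf8, the core protein of the spliceosome, had fold 23.3 and 52 tags. Genes for chromosome upkeep were Hjurp, the loader of centromeric histone (fold 15.4, 70 tags), and Ncapg, a condensin subunit (fold 21.4, 45 tags). Protein folding and quality control were represented by Tcp1, a chaperonin subunit (fold 17.4, 54 tags), and Sel1l, of the degradation pathway of the endoplasmic reticulum (fold 18.4, 53 tags). Membrane traffic was represented by Gbf1, an Arf exchange factor of the Golgi (fold 19.7, 53 tags), and Rab22a, an endosomal GTPase (fold 18.99, 48 tags). Mitochondrial genes were Mrps9, a ribosomal protein (fold 21.3, 44 tags), and Chchd3, of the cristae-organising complex (fold 20.1, 46 tags). Further regions stood at Prmt5, an arginine methyltransferase gene (fold 17.6, 54 tags), Tmem218 (fold 21.3, 45 tags) and Rbis (fold 20.7, 46 tags). None of the 20 encodes a neuropeptide or a neuropeptide receptor. Such genes are few, with 23 neuropeptide precursors listed here among 20661 genes, so their absence from 20 genes says little.

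At the other extreme, 5 regions had the lowest −log10 q. Pes1, Lrr1, Dlgap1 and Tcf12 had 6 tags each at folds of 4.19, 4.19, 4.18 and 4.17, and Tfdp1 had 7 tags at 4.09. Dlgap1 encodes a scaffold of the postsynaptic density, and Tfdp1 the partner of E2F factors. The number of tags was known for 2352 of the 2374 regions (99.1%). It ran from 6 to 75 with a median of 15 (quartiles 11 and 20), so most single regions rest on few tags. A −log10 q of at least 10 was reached by 1035 regions (43.6%). Just inside the bound of the rule, at 100 bp, lay Vps26a (fold 16.0), Acss2 (13.9), Ulk1 (14.8) and Mbd5 (11.8). Just outside, at 101 bp, lay Lonrf1 (12.7), Rpl31 (12.8), Gatb (10.04) and Sec22a (10.4). These 8 were the highest by −log10 q among regions at their distance, so they do not compare heights across the bound.

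Mc4r, the gene the series is about, held a region of 83 bp (chr18:66860511-66860593) whose summit lay 62 bp outside the gene's annotated end. Its fold was 7.51, its −log10 q was 7.86 and its summit held 11 tags (5.49 to 19.7). In order of −log10 q it was number 1424 of the 2374. Its fold was close to the median of the members, 7.58, and its tag interval spanned their median of 15.

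The regions lay at gene starts rather than at far ends, which the rule did not require. A strand was available for the genes of 1966 regions, and 1962 of these (99.8%, exact 95% binomial interval 99.5 to 99.9%) were at the start. The other 4 were at the far ends of Tmem253 (fold 6.32, 20 tags), Ung (7.19, 13 tags), Wiz (4.997, 12 tags) and Tes (4.63), named after their values were seen. Wiz, a zinc finger gene, had regions at both ends, with 9.23 and 19 tags at its start. Regions 100 to 1000 bp from an end of a single gene were at the start in 1548 of 1612 cases (96.0%, 94.96 to 96.9%). For 408 regions, 71 of them on chromosome 18, the strand was not known here.

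Within the 200 bp around the start, summits lay mainly on the upstream side. Of the 1962 summits at a start, 1451 were upstream (74.0%, 72.0 to 75.9%), 497 downstream and 14 on the first base. The median position was 34 bp upstream, with quartiles 64 bp upstream and 1 bp downstream. The bins from 60 to 40 bp and from 40 to 20 bp upstream held the most summits, 333 and 327, and the bin from 80 to 100 bp downstream held 47. In the class 100 to 1000 bp from a gene, 62.0% (59.5 to 64.4%) lay upstream. Position moved with height. In 4 groups of nearly equal size, from lowest to highest −log10 q, the median summit lay 27, 32.5, 33 and 45 bp upstream. Positions are relative to the outermost annotated end of the gene, so a promoter used inside it would be placed downstream.

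**Figure D1:**
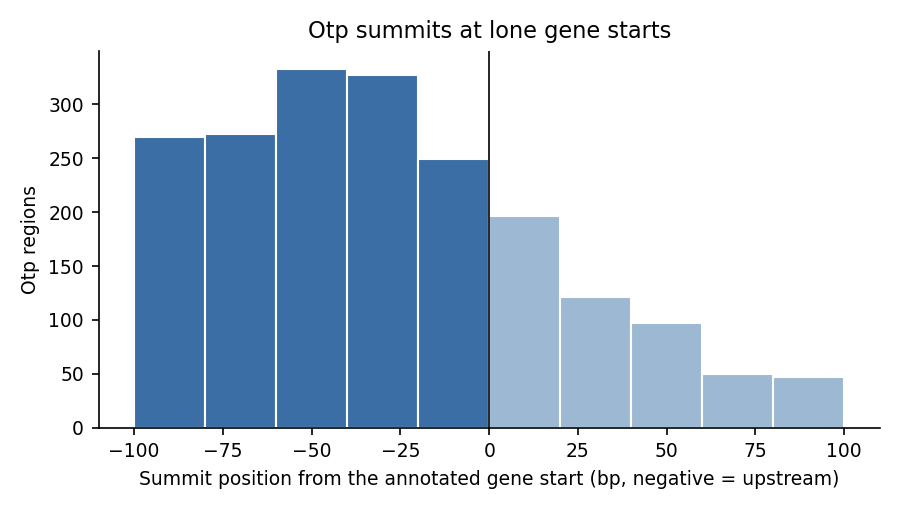
Histogram of the 1962 Otp summits at the start of a single protein-coding gene, in 20 bp bins of distance from the annotated start (negative is upstream, dark bars). The bins from 60 to 20 bp upstream hold 333 and 327 summits and the last downstream bin holds 47.

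In height the members differed little from other regions near genes and more from regions away from them. Their median fold was 7.58 (quartiles 6.21 and 9.84), beside 7.78 for regions within 100 bp of an end with a further gene end within 1 kb. It was 7.47 at 100 to 1000 bp, 6.54 for regions with no gene end within 1 kb and 6.97 over all Otp regions. The 254 Otp regions that overlap an IgG region, which the rule leaves out, were the highest class. Their median fold was 13.3 and their median number of tags, where known, was 43. Median widths were 161 bp for the members, 175 bp with a further gene end, 172 bp at 100 to 1000 bp and 103 bp away from genes. The 3 classes near genes overlapped over nearly their whole range. Across the 4 groups by −log10 q the members' median fold went from 5.62 to 11.5, the median tags from 10 to 26 and the median width from 106 to 241.5 bp.

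**Figure D2:**
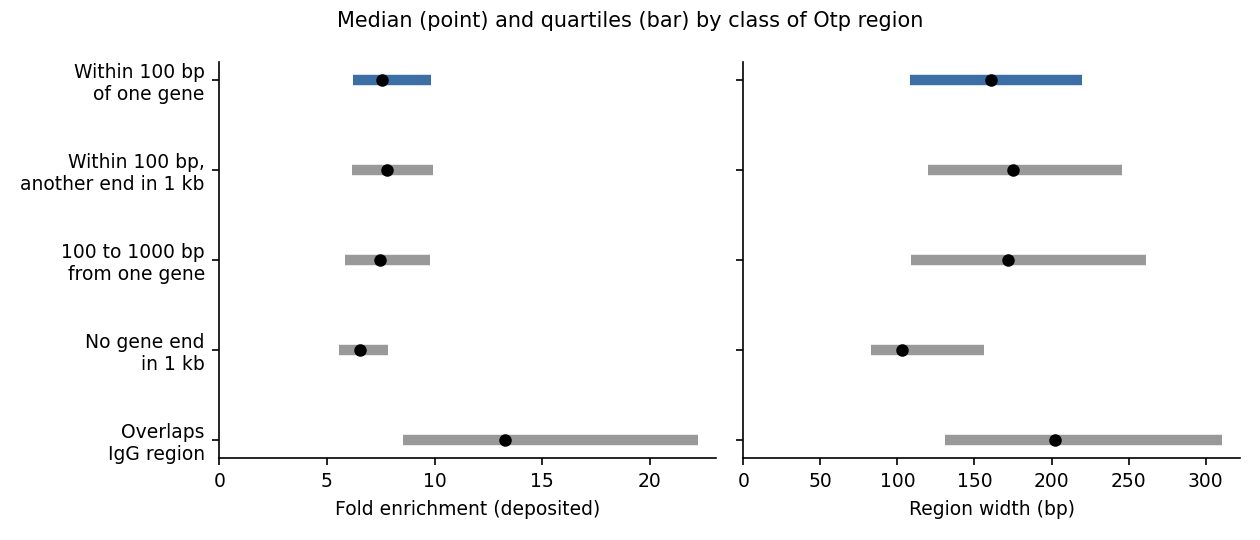
Median (point) and quartiles (bar) of the deposited fold enrichment, left, and of region width in bp, right, for 5 classes of Otp region. The members (blue, median fold 7.58, width 161 bp) overlap the other classes near genes, and regions with no gene end within 1 kb are lower and narrower (6.54 and 103 bp). Otp regions that overlap an IgG region are the highest (median fold 13.3).

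The IgG list was short, and its depth sets how much it can show at these promoters. The genome background worked out from the deposited values was 0.512 tags with the Otp antibody and 0.0873 tags with IgG, which differ by a ratio of 5.86. Divided by that ratio, the tags of 1948 of 2352 members (82.8%) fell below 4 tags, the height of the lowest IgG region with a known number. The scaled median was 2.56 tags and the maximum 12.8. The absence of an IgG region at those members therefore says little about IgG signal there. No member had an IgG region within 1 kb. The same distances held for 29 of 269 autosomal IgG regions (10.8%, 7.34 to 15.1%) and, with overlap of IgG allowed, for 21.6% (20.9 to 22.4%) of autosomal Otp regions. Of those 29 IgG regions, 23 were at a start, none at a far end and 6 at a gene of unknown strand.

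Motifs were counted in RefSeq promoter windows from 250 bases before to 50 after a start, which were at hand for 1743 member genes and 12678 genes in all. Those of 8828 genes with no Otp region at an end give the comparison. A match describes the letters of the window and does not show that a protein is bound there. Both strands were searched for each motif. The homeodomain motif was TAATTA and the GC box was GGGCGG. ETS proteins were represented by CCGGAAG and cyclic AMP response elements (CRE) by TGACGTCA. The CCAAT box was searched as these letters. YY1 was represented by AAGATGGCG, NRF1 by GCGCATGCG, and ZNF143 with THAP11 by ACTACAATT. The E-box was CACGTG, the AP-1 motif was TGANTCA and the TATA box was searched as TATAAA. BANP and ZBTB33 share TCTCGCGAG, while CTCF was represented by AGGGGGCG and RFX proteins by GTTGCCATG. The letters GGGCG are shared by the GC box and CTCF patterns, so a stretch can match both. Among all 12678 windows, the share holding each was 5.09% for TAATTA, 45.6% for the GC box, 12.4% for ETS, 2.55% for CRE, 40.7% for CCAAT, 1.97% for YY1 and 2.71% for NRF1. It was 0.584% for ZNF143, 8.01% for the E-box, 7.41% for AP-1, 15.2% for the TATA box, 0.970% for BANP, 8.01% for CTCF and 0.647% for RFX.

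Member promoters were rich in GC boxes and CpG and poor in TATA boxes. A GC box was found in 70.9% (68.7 to 73.0%) of them, beside 34.6% of promoters with no region, and an ETS motif in 20.9%, beside 8.22%. NRF1 was found in 7.06% (5.90 to 8.36%), beside 1.35%, YY1 in 3.38%, beside 1.19%, ZNF143 in 1.72%, beside 0.272%, and BANP in 2.24%, beside 0.329%. The TATA box went the other way, with 6.02% beside 19.1%, and so did AP-1, with 3.56% beside 8.95%. Median GC content was 60.3% against 52.0%, and the median ratio of observed to expected CpG was 0.78 against 0.33. Promoters with a region 100 to 1000 bp away were much like the members, with a GC box in 75.6%, ETS in 19.8% and a GC content of 63.3%. The intervals of these 2 classes did not overlap for TAATTA, described with the summits, for NRF1, at 4.26% (3.06 to 5.76%) in the farther class, and for RFX, at 1.38% (0.884 to 2.04%) in members and 0.106% (0.0027 to 0.592%) in the farther class. ETS was found in 30.4% (26.1 to 35.0%) of promoters whose region had a further gene end within 1 kb.

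The CCAAT box followed the height of the regions. It was found in 52.4% (50.1 to 54.8%) of member promoters, 52.5% of those with a region 100 to 1000 bp away and 35.4% (34.4 to 36.5%) of those with none. From the lowest to the highest of 4 groups of member genes by −log10 q the share was 40.4%, 48.6%, 53.6% and 67.2%, and the intervals of the lowest (35.8 to 45.2%) and highest group (62.6 to 71.6%) did not overlap. At least 2 copies were present in 10.3% of the lowest group and 42.0% of the highest, beside 9.24% of promoters with no region. GC content hardly moved over the same groups, with medians from 60% to 60.7%. BANP went the same way, from 0.913% to 4.82% (3.01 to 7.27%), while NRF1 had 7.31% in the lowest group and 6.88% in the highest. Median fold was 8.05 with and 7.09 without CCAAT, 9.64 with and 7.53 without BANP, and 8.55 with and 7.56 without TAATTA, the last over 52 promoters with the motif.

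CCAAT was also common at promoters with IgG signal. Of the IgG regions that met the same distances, 22 had a promoter window at a start, and all 22 windows held CCAAT (84.6 to 100%), 20 of them at least 2 copies. The nearest copy was within 25 bp of the IgG summit in 16 of them, although those summits held only 4 to 10 tags. Among members the share with CCAAT was 88.0% for the 25 highest, 80.0% for the 100 highest and 76.5% (70 to 82.2%) for the 200 highest. Among the 281 members with a window whose tags, scaled to the IgG background, reached the lowest IgG region, 196 (69.8%, 64.0 to 75.1%) held it. The part of untargeted cutting in the rise of CCAAT with height was not tested. NRF1 and BANP were in none of the 22 IgG windows, which allows shares of up to 15.4%.

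**Figure D3:**
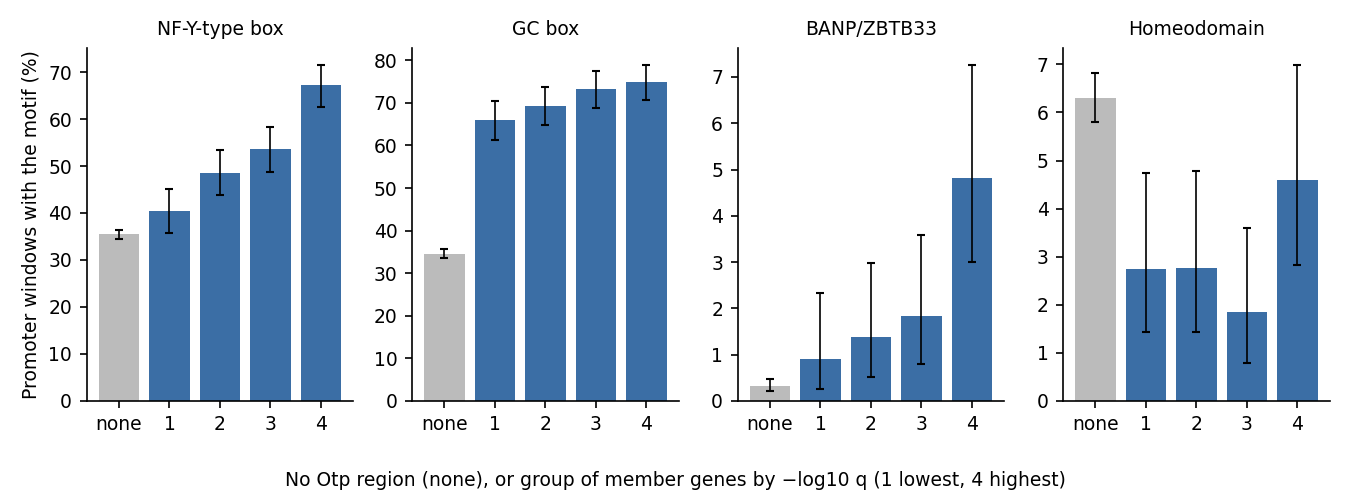
Share of promoter windows with a motif, in %, for 8828 genes with no Otp region (grey) and for 4 groups of member genes by −log10 q (blue, 1 lowest, 4 highest), with exact 95% binomial intervals. The NF-Y-type box is CCAAT, which goes from 40.4% to 67.2% across groups, and the homeodomain motif stays at or below 4.59% in members, beside 6.30% with no region.

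Matches to several of the G- and C-rich motifs and to CCAAT were denser near the summits. In the 1694 members whose summit lay inside the window, CCAAT centred within 25 bp of the summit in 22.4% (20.5 to 24.5%). The same places, relative to the start, held it in 18.6% of promoters with a region 100 to 1000 bp away and 9.05% of those with none. NRF1 was within 25 bp in 3.19% (2.40 to 4.14%), beside 0.818% and 0.407%. BANP was there in 0.945%, beside 0.382% and 0.119%, and the RFX motif in 0.472% (8 members), beside 0.0159% and 0.163%. Per 1000 places CCAAT had 5.68 matches at 20 to 30 bp and 1.61 at 100 to 150 bp. The GC box fell about as steeply, from 10.6 within 10 bp to 3.07 at 100 to 150 bp, and was within 25 bp of the summit in 36.2% of members, beside 32.8% and 14.4%. ETS went from 1.74 at 10 to 20 bp to 0.464 at 100 to 150 bp, and CTCF from 0.982 within 10 bp to 0.301. Within 25 bp of the summit ETS was found in 6.73% (5.58 to 8.03%) of members, beside 5.72% and 2.34%. CTCF was there in 4.37% (3.45 to 5.45%), beside 4.01% and 1.62%. For these 2 motifs the interval includes the share in promoters with a region 100 to 1000 bp away. CCAAT copies stood on both strands, 762 on that of the gene and 733 on the other, with a median position 73 bp upstream of the start.

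The homeodomain motif was scarce at the summits. TAATTA was found in 52 of 1743 member promoters (2.98%, 2.24 to 3.89%), beside 6.30% (5.80 to 6.83%) of promoters with no region and 1.17% of those with a region 100 to 1000 bp away. By group of −log10 q the shares were 2.74%, 2.76%, 1.84% and 4.59%, with overlapping intervals. Within 25 bp of a summit it was found in 0 of 1694 members, which allows a share of up to 0.218%. The same places held it in 0.0332% of promoters with a region 100 to 1000 bp away and 1.03% of those with none. The nearest TAATTA was 27.5 bp from a summit, and over the 51 members with the motif and the summit in the window the median distance was 120.5 bp. The 4-letter core TAAT, added after seeing the data, centred within 25 bp of the summit in 4.25% of members, beside 6.86% and 17.4%. Base composition moved with the same distance: GC content of the windows was 68.2% within 10 bp of the summit and 58.4% at 100 to 150 bp. Its part in the scarcity of this A- and T-rich motif was not tested.

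**Figure D4:**
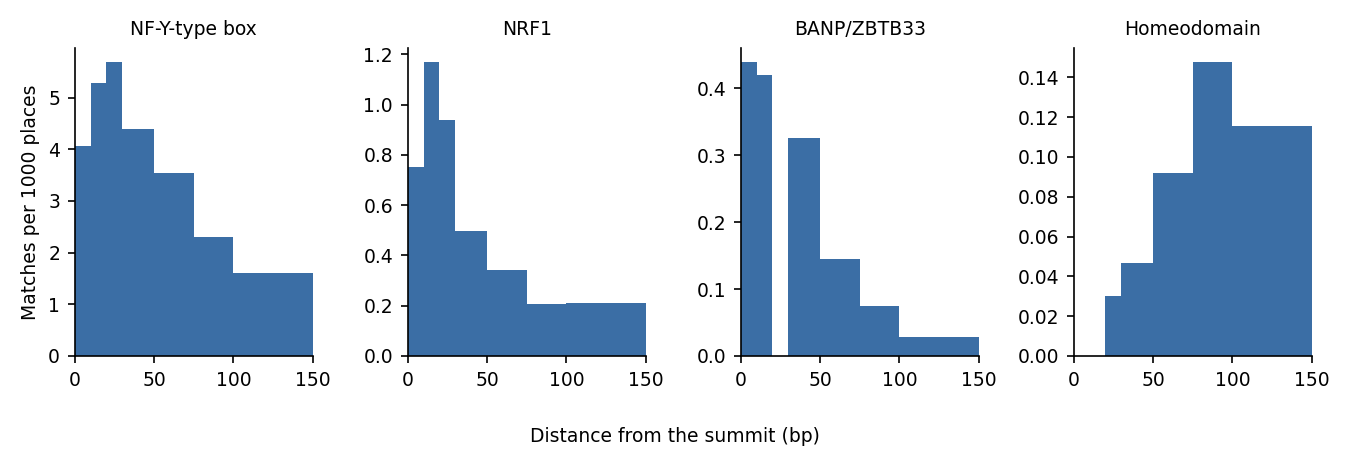
Matches per 1000 possible places against distance from the summit in bp, for 4 motifs in the windows of 1694 members (the NF-Y-type box has the letters CCAAT). The matches of this box are densest at 20 to 30 bp (5.68 per 1000) and those of NRF1 at 10 to 20 bp (1.17). Those of BANP are densest within 10 bp (0.439), with none at 20 to 30 bp. A site matching NRF1 or BANP on both strands counts once per strand. The homeodomain motif has none within 20 bp. Over the distances shown, up to 150 bp, its density is highest at 75 to 100 bp (0.148 per 1000, 10 matches).

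Member genes were read against gene lists by function, each as a share of the listed genes with an end clear of other genes, for which the share over all genes was 12%. No test of a list was made. Zinc finger Zfp genes, most of them repressors that bind DNA through arrays of fingers, had 111 members among 380 (29.2%, 24.7 to 34.1%), with a median fold of 8.06 (all members 7.58). Zfp78, with fold 13.1 and 60 tags, came next after Zfp869 and Zfp317. Of 26 transcription factors known for binding promoters, 7 were members (26.9%, 11.6 to 47.8%). Max, the partner of Myc, led them with fold 14.2 and 39 tags (27.7 to 53.3), followed by Sp3, a GC box factor, with 9.18 and 21 tags, and Usf1, an E-box factor, with 9.51 and 17 tags. Nfyb, a subunit of the CCAAT-binding factor NF-Y, had fold 7.67 and 17 tags, and Ctcf had 5.81 and 12 tags.

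Genes for making proteins were among the lists above 12%. Aminoacyl-tRNA synthetases, which load tRNAs with amino acids, had 11 members of 33 (33.3%, 17.96 to 51.8%). They were low regions, with a median fold of 6.14, led by Lars (11.4, 27 tags), Lars2 (10.8, 23 tags) and Dars (10.3, 18 tags). Splicing factors had 13 of 43 (30.2%, 17.2 to 46.1%), led by Prpf8 and, far below it, Sf3b5 (12.6, 21 tags) and Snrpe (8.995, 18 tags). Cytosolic ribosomal proteins had 18 of 71 (25.4%, 15.8 to 37.1%) with a median fold of 6.37, led by Rps24 (11.0, 29 tags). Mitochondrial ribosomal proteins had 15 of 68 (22.1%, 12.9 to 33.8%), led by Mrps9 and Mrps14 (15.1, 51 tags). Mediator, which links activators to the polymerase, had 7 of 27 (25.9%, 11.1 to 46.3%), led by Med7 (12.5, 21 tags) and Med1 (11.6, 22 tags). The interval of Mediator included 12%, as did those of complex I of the respiratory chain (6 of 34, 17.6%), proteasome subunits (6 of 35, 17.1%) and ubiquitin E2 enzymes (5 of 30, 16.7%). Among the last, Ube2d3 had fold 14.1 and 57 tags (43.2 to 73.9).

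Transport and traffic genes divided. Rab GTPases, switches of vesicle traffic, had 13 members of 53 (24.5%, 13.8 to 38.3%), led by Rab22a, Rab11b (14.8, 47 tags) and Rab18 (11.9, 25 tags). Kinesins, the microtubule motors, had 10 of 36 (27.8%, 14.2 to 45.2%), led by Kif6 (14.5, 25 tags). Solute carriers had 36 of 316 (11.4%, 8.11 to 15.4%), led by Slc25a28, a mitochondrial iron carrier (13.6, 41 tags), and potassium channels 9 of 91 (9.89%, 4.62 to 17.9%), led by Kcnn3 (11.9, 28 tags). Both were close to the share over all genes. Synaptic vesicle and SNARE genes had 5 of 30 (16.7%, 5.64 to 34.7%). Among them Napa, which helps to take SNARE complexes apart, had 45 tags at fold 14.7, and its relative Napb had 23 at 10.6. Syt4 had 20 tags, and Syt1 and Syn2, of synaptic vesicles, had 16 and 15.

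Lists for PVN neurons and energy balance were small, and the intervals of their shares all included 12%. Among 16 transcription factors of the PVN lineage only Sim1, needed for the PVN to form, was a member (6.25%, 0.158 to 30.2%), with fold 6.69 and 12 tags (6.20 to 21.0). Otp itself was no member. Of 27 receptors and signalling genes of energy balance, 6 were members (22.2%, 8.62 to 42.3%). Stat3 was the highest, with fold 12.7 and 37 tags (26.1 to 51), beyond the interval of each of the other 5. Pcsk2, a convertase of prohormones, had 7.45 and 13 tags, Mc4r 7.51 and 11, and Ntrk2, the receptor of BDNF, 6.62 and 14. Irs2, of insulin signalling, had 6.08 and 14 tags, and Oxtr, the oxytocin receptor, 6.65 and 10. The tag intervals of these 5 overlapped, so their order is not resolved at this depth.

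Neuropeptide precursors had 3 members of 23 (13.0%, 2.78 to 33.6%), close to all genes. Nucb2, the precursor of nesfatin, had fold 15.8 and 33 tags (22.7 to 46.3). Scg2, of secretory granules, had 7.60 and 15, and Vgf, a granule peptide precursor, had 4.90 and 10. The precursors of vasopressin, oxytocin, corticotropin-releasing hormone and thyrotropin-releasing hormone (Avp, Oxt, Crh and Trh) were not members. Activity-induced genes had 3 of 22 (13.6%, 2.91 to 34.9%): Jun with fold 10.6 and 28 tags, Klf4 with 7.69 and 15, and Fos with 6.90 and 14. With summits allowed up to 250 bp from the end, the share of activity-induced genes was 36.4%, beside 16.6% of all genes. Hox genes, which pattern the hindbrain and trunk, had 0 of 39, which allows up to 9.03%, and olfactory receptors had 0 of 1104, which allows up to 0.334%.

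Several of the higher shares rested on weak regions. With a −log10 q of at least 10, members stood at 5.01% of all 20661 genes. As shares of all listed genes, with or without a clear end, kinesins then had 5.41%, cytosolic ribosomal proteins 5% and energy balance genes 3.7%, close to or below all genes. Splicing factors had 8.51%, aminoacyl-tRNA synthetases 8.11% and mitochondrial ribosomal proteins 7.69%. Zfp genes stayed the farthest above among these 7 lists, with 13.9%. Of the other lists, promoter-binding transcription factors had 14.8% and Rab GTPases 14.5%. Proteasome subunits had 13.2%, Mediator 10.7%, synaptic vesicle and SNARE genes 10%, complex I 8.33%, ubiquitin E2 enzymes 6.67% and solute carriers 5.25%. Activity-induced genes (4.55% of 22) and neuropeptide precursors (4.35% of 23) were close to all genes, and potassium channels had 2.17% of 92. No intervals are given at this threshold, and shares of short lists rest on few genes. Hox genes (39) and olfactory receptors (1104) had 0%. PVN lineage factors had 0% as well, but over only 16 genes, which says little. With summits up to 250 bp from the end, cytosolic ribosomal proteins had 43.8% and proteasome subunits 34.2%, beside 16.6% of all genes. PVN lineage factors then had 18.8%, close to all genes.

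**Figure D5:**
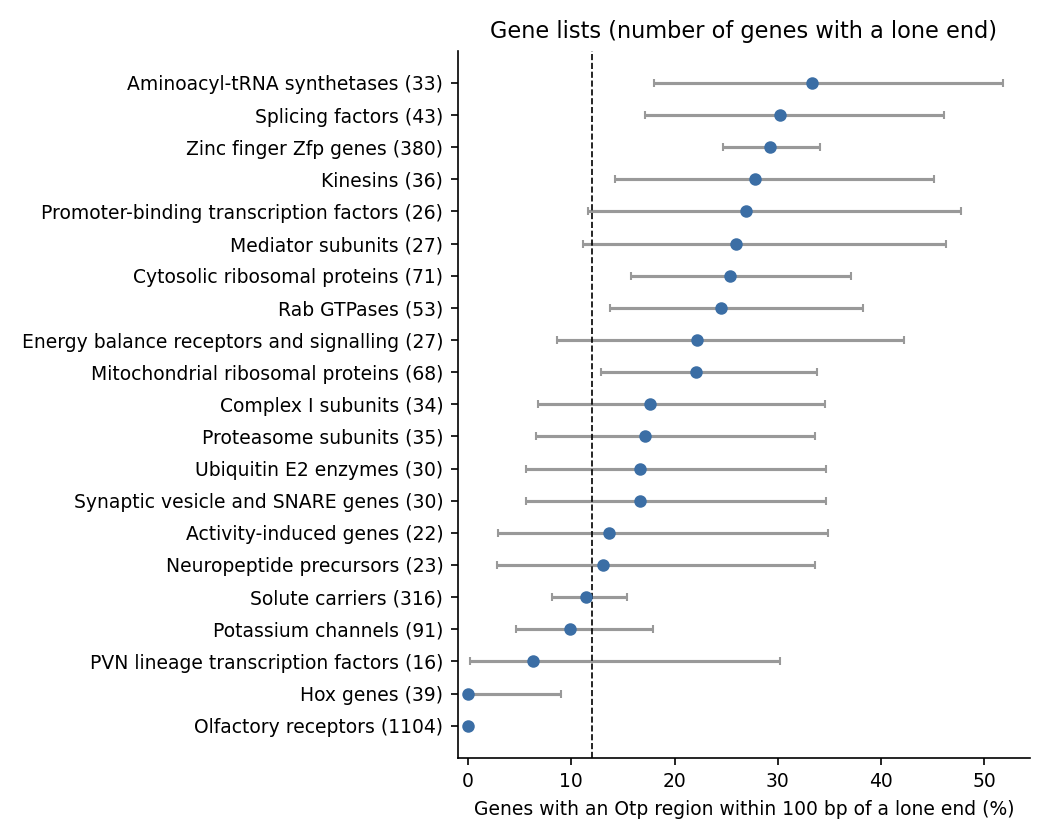
Share of genes with a member region, in %, for 21 gene lists, with exact 95% binomial intervals and the number of genes with an end clear of other genes in parentheses. The dashed line is the 12% over all such genes, and the lists run from 33.3% for aminoacyl-tRNA synthetases to 0 for Hox genes and olfactory receptors.

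The share of genes with a member varied with gene length and between chromosomes. In 5 groups of nearly equal size by gene length the shares were 4.31%, 10.2%, 14.8%, 16.5% and 14.0%, from shortest to longest, and the median member gene spanned 26667 bp against 18067.5 bp over all genes that could hold a member. The part of gene length in the shares of the lists was not tested. Chromosome 7 had the lowest share, 9.25% (7.99 to 10.6%), and chromosome 10 the highest, 14.3% (12.2 to 16.7%). An end of a non-coding gene lay within 1 kb of 382 members (16.1%), and 316 members had a long non-coding RNA gene there. A further Otp region in the gene or within 10 kb of it accompanied 726 members (30.6%).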

How the data were processed

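CUT&RUN from adult mouse PVN gave 1 peak list for an Otp antibody and 1 for IgG, grouped by the antibody label. Per the submitters' processing notes, the authors used Trimmomatic, Bowtie2, Picard, SAMtools and MACS2 with mm10; versions and settings are not stated in the sources at hand. The fold enrichment (a ratio of summit signal to the caller's background, taken here to have the same small constant added to both) was deposited by the authors. So were the −log10 q and p, in 1 list per sample. Whether IgG entered the calling of the Otp list as control is not known here, so the background behind the Otp fold enrichment and tags may come from either library. They rank regions within a list. Library depth is unknown.

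Tags were worked out from deposited fold enrichment and p: a whole number had to match the −log10 p within 0.001 and the next one had to miss by over 0.005. The step was tested on simulated data. The genome background is the lowest background shared by several regions. Gene ends came from a RefSeq table of GRCm38.p6, strands and sequences from its promoter windows, used where the window's start lay within 100 bp of the gene's end. Windows give no sequence for some members, chromosome 18 among them. Shares carry exact (Clopper-Pearson) 95% intervals and tags Poisson intervals, for counting error only, since PCR copies are not independent molecules. No p-values were computed.

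Named genes were the 20 members with the highest and the 5 with the lowest −log10 q, 4 on each side of the distance bound, up to 3 per list, and Mc4r; 1 gene under this rule is not reported here. Genes named beyond these (further list members, non-members and regions at far ends) were chosen after their values were seen. The members, gene lists and motifs were chosen with earlier results of these data known. Alternatives were stricter −log10 q or fold thresholds, other distances, other gene ends and a wider IgG margin. Python 3.11.15, numpy 2.4.6, scipy 1.17.1, pandas 2.3.3 and matplotlib 3.10.9 were used.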

Additional observations from a re-analysis of the deposited data

How the results depend on the processing

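Requiring a −log10 q of at least 10 left 1035 members with a median fold of 10.2, all of those with a strand at the start (100%), at 5.01% of genes. CCAAT was then in 63.3% of their promoters, 54% in the lowest and 76.6% in the highest of 4 groups. With a −log10 q of at least 5 the median fold was 8.04 at 9.74% of genes, and with a fold of at least 5 it was 7.73 at 10.9%. Summits within 50 bp gave 1361 members, a median fold of 7.42, 6.59% of genes and CCAAT in 48.7%, while summits within 250 bp gave a median fold of 7.73 and 16.6% of genes. Asking for no other gene end within 5 kb gave 9.54% of genes, and counting the ends of all annotated genes 9.64%. The share with TAATTA stayed between 2.33% and 3.59% under the 8 alternatives, the last of which, no IgG region within 1 kb, changed nothing. Changes of motif were added after seeing the data: the core TAAT was in 46.1% of member promoters, beside 60.4% with no region and 38.8% with a region 100 to 1000 bp away, and the word CCAATCAG in 11.4%, beside 3.12%. Of 264 values of single motifs and lists, 233 moved by less than their interval and 31 by more, 13 of these at a −log10 q of at least 10. Leaving out a library was not possible with 1 per antibody. No paired analysis was possible because each antibody has 1 library and the labels give no replicate numbers. Few tags per region limit the order of single regions, and the shallow IgG library limits what its absence at a promoter shows.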

Other observations

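Promoters on the X chromosome, outside the rule, gave regions of the same kind. The same distances held for 76 Otp regions at 75 of 966 X-linked protein-coding genes (7.76%), beside 11.5% on chromosomes 1 to 19, with a median fold of 7.94. The highest was at Upf3b, of nonsense-mediated RNA decay (fold 14.5, 29 tags), followed by Brwd3 (12.0357, 21 tags) and Clcn5, a chloride transporter gene (11.9596, 20 tags). Suv39h1, a histone methyltransferase gene, had 20 tags. A further 2 such regions lay on the Y chromosome.

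IgG regions that met the same distances were led by Ssx2ip (fold 9.43, 10 tags), Rbm4, an RNA-binding protein gene (9.37, 10 tags), Cry2, a circadian repressor gene (8.52, 9 tags), and Rragc, of amino acid sensing (7.97, 8 tags). Of the Otp regions that overlap IgG, 25 met these distances.

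Words of 8 letters were counted around member summits without a preset motif, after the motif counts had been seen. Those named come from words with at least 25 copies within 25 bp of a summit and the highest ratios of near to far density. Their surplus near the summit is thus how they were chosen. CAATCAGA occurred 50 times within 25 bp of a summit and 12 times beyond 70 bp, or 0.598 and 0.0443 per 1000 places. CCAATCAG occurred 89 and 34 times, or 1.07 and 0.126 per 1000 places. TCGCGAGA, which overlaps the BANP motif, occurred 37 and 16 times (0.443 and 0.0591 per 1000). GCATGCGC, which overlaps the NRF1 motif, occurred 105 and 58 times (1.26 and 0.214 per 1000).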
